A study of Mus musculus with 9 samples.

Results

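The genes described here are 9 genes of the death receptor and necroptosis pathway, namely Tnfrsf1a, Fas, Fadd, Casp8, Cflar, Ripk1, Ripk3, Mlkl and Zbp1. They were chosen by symbol, and all 9 were found among the 22337 genes of the deposited table. RNA-seq was carried out on mouse retina collected at P28, with 3 libraries per group. WT was C57 BL/6J that received no treatment. In rd10 mice, Pde6b, the gene of the beta subunit of phosphodiesterase in rods, is mutated, and the rods degenerate. The rd10 littermates received either normal saline (NS) or MSC-EVs, which are vesicles from mesenchymal stem cells of human umbilical cord, as 1 μl into the vitreous of both eyes at P14 and again at P21. WT differed from NS-treated rd10 in genotype, in injection and in the supplier that the paper names, so these cannot be told apart in a comparison with WT. The sources used here do not say whether each library came from a separate animal, so the p-values measure only the spread between these libraries.

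Death receptors are membrane proteins that recruit the adaptor FADD and caspase-8 when their ligands bind. Caspase-8 can start apoptosis, and its catalytically inactive relative cFLIP, the product of Cflar, regulates it. Where caspase-8 is not active, the kinases RIPK1 and RIPK3 can assemble through a shared interaction motif, and RIPK3 phosphorylates MLKL, which then permeabilizes the plasma membrane. This lytic form of death is called necroptosis. ZBP1 senses nucleic acids in the Z conformation and can engage RIPK3 without a death receptor, and its gene is known to be induced by interferon.

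The summed counts per library lay between 19491717 and 62532343, and MSC-EVs replicate 3 was the deepest. Expression is given as CPM, counts scaled to library size with TMM factors, and FPKM, which also divides by transcript length, is used where levels of different genes are compared. The 4 Y-linked genes Ddx3y, Kdm5d, Uty and Eif2s3y summed to 4379 and 4421 counts in MSC-EVs replicates 1 and 2 and to 7 to 23 in the other 7 libraries. Among the rd10 libraries, those with Y-linked counts were therefore all MSC-EVs-treated. The tissue label was checked with 10 rod markers, which summed to 76200 to 81700 CPM in WT, 15400 to 22100 in NS-treated rd10 and 16000 to 22400 in MSC-EVs-treated rd10. The 10 microglia and macrophage markers, by contrast, summed to 32.9 to 35.1 CPM in WT, 203 to 260 in NS-treated rd10 and 179 to 323 in MSC-EVs-treated rd10. In whole retina, fewer cells of a type and less RNA per cell cannot be told apart.

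In the WT retina, the 9 genes covered a wide range of levels per length. Cflar was the highest at 10.3 ± 0.827 FPKM (SD, n = 3), followed by Tnfrsf1a at 4.12 ± 0.104, Ripk1 at 2.2 ± 0.163 and Fadd at 1.77 ± 0.126. Fas at 0.633 ± 0.186 FPKM and Casp8 at 0.547 ± 0.162 overlapped each other. Zbp1, Ripk3 and Mlkl were at the bottom, with means of 0.153, 0.0733 and 0.02 FPKM, and each overlapped its neighbour in this order. The first 4 genes did not overlap their neighbours. In NS-treated rd10 the order differed: Tnfrsf1a came first at 25.6 ± 2.58 FPKM, above Cflar at 13.4 ± 0.44, and Zbp1 came next at 4.68 ± 2.75. Zbp1, Casp8 and Fas each overlapped the next gene in that order, down to Ripk1, as did Mlkl and Ripk3 at the bottom. In MSC-EVs-treated rd10 the top 3 were in the same order, and Fadd, Mlkl and Ripk3 were again the last 3.

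**Figure D1:**
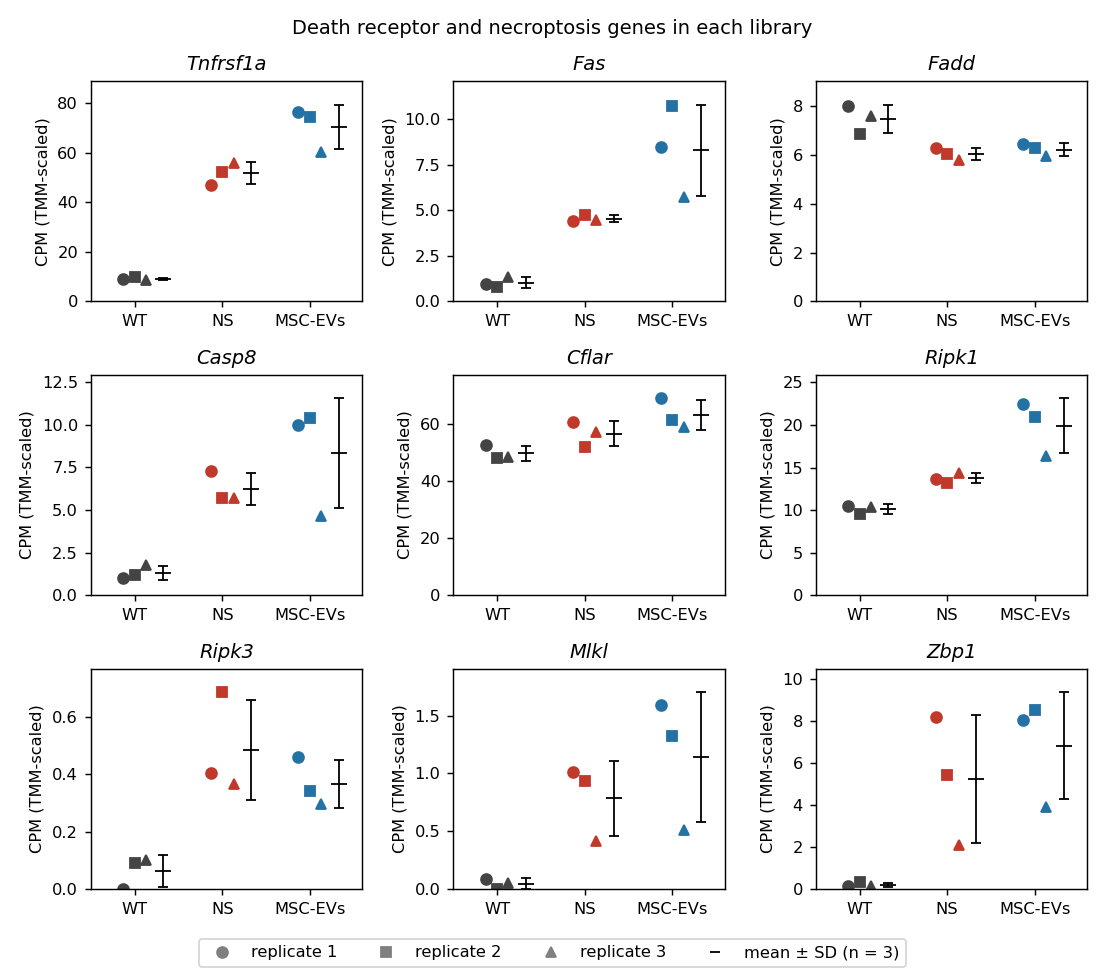
Expression of the 9 genes in each library, in CPM scaled by TMM factors on axes that start at 0 and differ between panels, with WT in grey, NS-treated rd10 in red and MSC-EVs-treated rd10 in blue. Symbols mark the replicate number and bars the mean ± SD (n = 3). Tnfrsf1a, Fas, Casp8, Mlkl and Zbp1 were higher in all 6 rd10 libraries than in any WT library, and MSC-EVs replicate 3 was the lowest of its group in all 9 genes.

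Between NS-treated rd10 and WT, which addresses what the degenerating retina expresses at P28, both receptors, the caspase Casp8, the sensor Zbp1 and more modestly Ripk1 and Cflar rose. Of the 9 genes, 7 had enough counts to be tested, and 6 of these were called higher by edgeR's quasi-likelihood test at an adjusted p under 0.05, while 31.2% of all 14644 genes tested were. With a log2 fold change of at least 1 required in addition, 4 of the 7 were called higher, against 9.16% of all genes. None of the 7 was called lower, against 30.1% of all genes. All 7 had an unadjusted p under 0.05, as did 65% of all genes. The median log2 fold change of the 7 was 2.16, and that of all genes tested was 0.01. Zbp1 passed the count filter through its rd10 libraries, so its part in these counts is a description only.

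Tnfrsf1a encodes TNF receptor 1 and lies on chromosome 6 (GRCm38, 125349362 to 125362484, plus strand). It stood at 8.88, 9.67 and 8.76 CPM in the WT libraries and at 47.0, 52.1 and 55.9 CPM in NS-treated rd10. The lowest NS-treated library was far above the highest WT library, and replicates within a group were close. Tnfrsf1a rose by 2.50 on the log2 scale (standard error, SE, 0.09; edgeR adjusted p = 1.23e-09) and ranked 26 of the 14644 genes by p. Fas encodes the receptor of Fas ligand and lies on chromosome 19 (34290666 to 34327772, plus strand). Its values were 0.942, 0.761 and 1.35 CPM in WT and 4.39, 4.76 and 4.49 CPM in NS-treated rd10. The groups did not overlap, and the log2 fold change was 2.16 (SE 0.24, edgeR adjusted p = 8.21e-06).

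Fadd, on chromosome 7 (144577318 to 144582463, minus strand), encodes the adaptor that couples these receptors to caspase-8. Its values were 7.99, 6.85 and 7.61 CPM in WT and 6.29, 6.03 and 5.81 CPM in NS-treated rd10. The NS-treated libraries lay below the WT libraries on this scale, whereas the FPKM values of the groups overlapped. The log2 fold change of -0.31 (SE 0.13) did not pass the threshold (edgeR adjusted p = 0.0577), and it was -0.13 when library totals were used in place of TMM. The gene shares 6.1% of its exon bases with the antisense gene Faddos, and the library protocol describes no step that would mark strand, so reads of the pair cannot be told apart there.

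Casp8, on chromosome 1 (58795374 to 58847503, plus strand), stood at 0.987, 1.16 and 1.75 CPM in WT and at 7.30, 5.69 and 5.72 CPM in NS-treated rd10. All NS-treated libraries exceeded all WT libraries, with a log2 fold change of 2.27 (SE 0.23, edgeR adjusted p = 4.3e-06). Cflar, which lies nearby on the same chromosome (58711508 to 58758884, plus strand), had 52.9, 48.0 and 48.6 CPM in WT and 60.9, 52.2 and 57.2 CPM in NS-treated rd10. Here WT replicate 1 lay above NS replicate 2, so the groups overlapped. Cflar was called at a log2 fold change of 0.19 (SE 0.07, edgeR adjusted p = 0.041), and its fold change was larger with library totals in place of TMM (0.37, adjusted p = 0.000533) and with limma on log2(FPKM + 1) (0.36, 0.00238). The call was lost with DESeq2 (adjusted p = 0.059), with all 9 libraries in one fit (0.0556), and without NS replicate 1 (0.161), NS replicate 3 (0.0841), WT replicate 2 (0.135) or WT replicate 3 (0.113).

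Of the kinases, Ripk1, on chromosome 13 (34002363 to 34037147, plus strand), rose by much less than the receptors. It stood at 10.5, 9.49 and 10.4 CPM in WT and at 13.6, 13.2 and 14.4 CPM in NS-treated rd10. The groups did not overlap, and the log2 fold change was 0.44 (SE 0.10, edgeR adjusted p = 0.00241). Ripk1 shares 2.9% of its exon bases with Serpinb6a on the opposite strand and 6.1% with the pseudogene Gm17084, and how the counting assigned those reads is uncertain.

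Ripk3, on chromosome 14 (55784995 to 55788865, minus strand), was close to the limit of detection. It had 0, 2 and 2 counts in WT and 12, 14 and 8 counts in NS-treated rd10. The ratio of the summed counts per depth was 7.64 (95% exact interval 2.73 to 29.7, which covers counting error only), and the groups did not overlap. Mlkl, on chromosome 8 (111311797 to 111338177, minus strand), encodes the protein that carries out necroptosis. It had 2, 0 and 1 counts in WT and 30, 19 and 9 counts in NS-treated rd10, a ratio of 17.4 (exact interval 5.66 to 86.8). All NS-treated libraries lay above all WT libraries, but they differed 2.46-fold in CPM among themselves. Neither gene passed the count filter in this comparison. When no filter was used, edgeR gave log2 fold changes of 3.94 for Mlkl (SE 0.75, adjusted p = 0.000175) and 2.84 for Ripk3 (SE 0.78, adjusted p = 0.00447).

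Zbp1, on chromosome 2 (173206612 to 173218923, minus strand), had the largest fold change of the 7 genes tested and the widest spread in NS-treated rd10. It had 3, 7 and 3 counts in WT and 243, 111 and 46 counts in NS-treated rd10, which is 8.21, 5.44 and 2.11 CPM. The groups were far apart, while NS replicate 1 stood 3.9-fold above NS replicate 3. The log2 fold change was 4.69 (SE 0.64, edgeR adjusted p = 0.000281), and it lay between 4.18 and 5.17 when each library was left out in turn. In NS-treated rd10, Mlkl and Zbp1 shared their order over the libraries, with replicate 3 the lowest. The microglia and macrophage markers, at 260, 230 and 203 CPM, and the monocyte and neutrophil markers, at 13.9, 6.27 and 4.39 CPM, had the same order. The lens markers had this order too, whereas the T and NK cell markers and the remaining marker lists did not. Over so few libraries an order can be shared by chance, so it does not show which cells expressed Mlkl and Zbp1. The part of any cell type in the levels of Mlkl and Zbp1 was not tested.

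**Figure D2:**
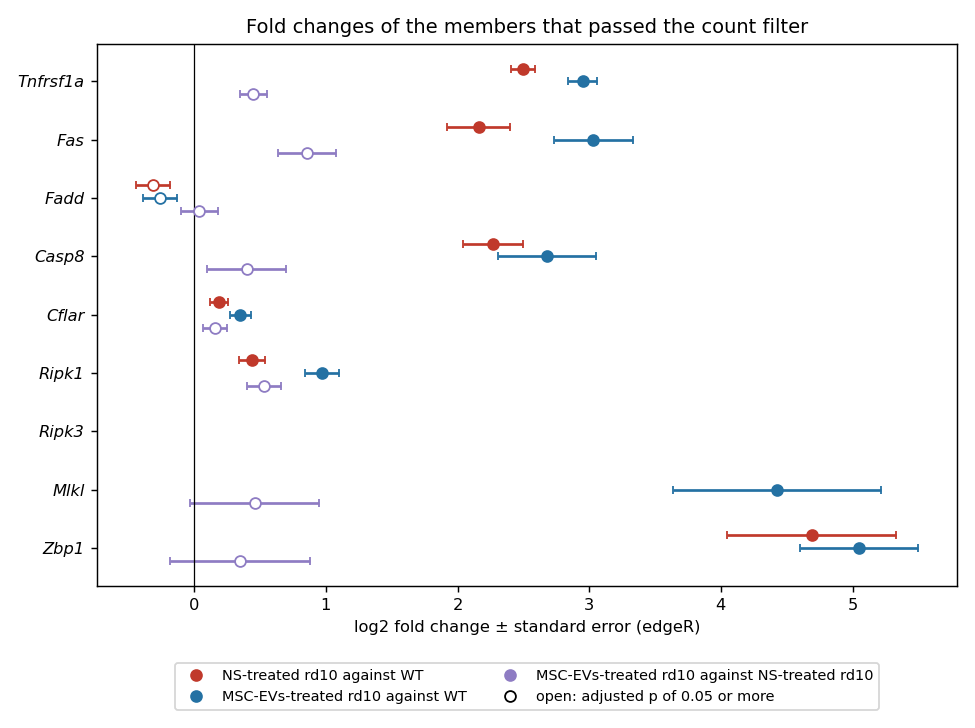
Log2 fold changes with their standard errors from edgeR for the genes that passed the count filter, in the 3 comparisons; a filled point had an adjusted p under 0.05 and an open point did not. Ripk3 passed in no comparison and has no point, and Mlkl has none for NS-treated rd10 against WT. All 8 points for MSC-EVs-treated against NS-treated rd10 are open and lie at or above 0.04.

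Genes of interferon signalling also rose in NS-treated rd10, as given with the pathway lists, and RefSeq promoters (GRCm38.p6, 250 bases before to 50 after the start) were searched on both strands for GAAA, any 2 bases and GAAA, the core of the interferon-stimulated response element (ISRE), TTC, any 3 bases and GAA, the interferon-gamma activated site (GAS), and GGG, any 2 bases and TTTCC, an NF-kB type site. Promoters were present in the table for 8 of the 9 genes, and Zbp1 had none. The ISRE core was found in 3.44% of all 32851 promoters, the GAS in 8.3% and the NF-kB type site in 1.63%. Among the 8 genes with a promoter, a GAS was found in Tnfrsf1a, Fas and Ripk1, an ISRE core in Ripk1 and Cflar, and the NF-kB type site in none. The shares count promoters, and Ripk1 had 2. The windows below are printed on the gene's strand, with the match in capitals, because they show where these letters stand in genes that differed between the groups. Positions are counted from the RefSeq start, with the first transcribed base as 1. The Tnfrsf1a match spans bases -244 to -236 and is shown within chr6:125349473-125349502 (plus strand).
Tnfrsf1a GAS: gcttccTTCCGTGAAattgacaacaggctt
The Fas match spans bases -93 to -85 and is shown within chr19:34290556-34290585 (plus strand).
Fas GAS: tcaaagcgatTTCTGGGAAgacctgaatag
One Ripk1 GAS spans bases -108 to -100 and is shown within chr13:34002756-34002785 (plus strand).
Ripk1 GAS: agaagctggtTTCCCGGAAggggcggaggc
The Ripk1 ISRE core spans bases -5 to 5, overlaps a second GAS at -11 to -3, and is shown within chr13:34002859-34002888 (plus strand).
Ripk1 ISRE: aacgttcccgGAAATCGAAAagcgcggaac
The Cflar core lies on the opposite strand at bases 7 to 16 and is shown within chr1:58711487-58711516 (plus strand).
Cflar ISRE: ccacgtctgcTTTCGGTTTCtgggcgtctc
A match is a run of letters and was not tested for binding in these retinas.

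The comparison of MSC-EVs-treated with NS-treated rd10 asks whether the vesicles changed these genes. No member was called by edgeR in either direction: 0 of the 8 genes tested passed the adjusted threshold, against 0.914% of all 14765 genes called higher and 0.251% called lower. Ripk1, Tnfrsf1a and Fas had an unadjusted p under 0.05, as did 20.2% of all genes, and in these 3 of 8 genes every MSC-EVs-treated library lay above every NS-treated library, as it did in 12.8% of all genes. DESeq2 called those 3 genes higher, with 4.27% of all genes, as did a fit of all 9 libraries, with 4.3%. The median log2 fold change of the 8 was 0.43, and that of all genes tested was 0.00.

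Fas had the largest difference, with 8.49, 10.7 and 5.72 CPM in MSC-EVs-treated rd10 against 4.39 to 4.76 CPM with NS. All MSC-EVs-treated libraries were above all NS-treated ones, but replicate 3 was close to them. The log2 fold change was 0.86 (SE 0.22, edgeR adjusted p = 0.085). Tnfrsf1a stood at 76.6, 74.6 and 60.2 CPM with MSC-EVs against 47.0 to 55.9 CPM with NS, a log2 fold change of 0.45 (SE 0.10, edgeR adjusted p = 0.0666). Ripk1 stood at 22.5, 20.9 and 16.3 CPM with MSC-EVs against 13.2 to 14.4 CPM with NS, a log2 fold change of 0.53 (SE 0.13, edgeR adjusted p = 0.0736). In both genes, too, replicate 3 was the lowest of the MSC-EVs-treated libraries and still higher than every NS-treated library.

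In the remaining genes the rd10 groups overlapped. Casp8 had 10, 10.4 and 4.66 CPM with MSC-EVs, so that replicates 1 and 2 were above every NS-treated library and replicate 3 was below every one. Its log2 fold change was 0.40 (95% interval -0.19 to 0.99, edgeR adjusted p = 0.502). Mlkl had 38, 31 and 33 counts, which is 1.59, 1.32 and 0.513 CPM, and Zbp1 had 8.07, 8.54 and 3.92 CPM. In both, replicate 3 of either rd10 group was the lowest. The log2 fold changes were 0.46 (95% interval -0.51 to 1.43) and 0.35 (-0.69 to 1.39). Ripk3 had 11, 8 and 19 counts, and the count ratio to NS was 0.719 (exact interval 0.441 to 1.18). Its mean FPKM went the other way, at 0.313 ± 0.205 with MSC-EVs and 0.27 ± 0.0954 with NS. Cflar and Fadd differed by 0.16 (95% interval -0.01 to 0.33) and 0.04 (-0.23 to 0.32). These intervals do not show that the groups were alike.

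MSC-EVs replicate 3 was the library without Y-linked counts in its group. When replicates 1 and 2 were left out, which leaves MSC-EVs-treated rd10 with 1 library that is assumed to vary like the others, the log2 fold changes fell to 0.26 for Ripk1 (edgeR adjusted p = 0.369), 0.24 for Tnfrsf1a (0.302) and 0.34 for Fas (0.429). They were -0.41 for Casp8, -0.62 for Mlkl and -0.43 for Zbp1. Without MSC-EVs replicate 3, Ripk1 (0.66, edgeR adjusted p = 0.0288), Tnfrsf1a (0.55, 0.0278) and Fas (1.08, 0.0267) were each called higher, as were 106 of all 14939 genes. In that fit every MSC-EVs-treated library had Y-linked counts and no NS-treated library did. The treatment and the Y-linked difference therefore cannot be told apart in it. The microglia and macrophage markers summed to 264, 323 and 179 CPM with MSC-EVs, the lowest again in replicate 3, while 0 of the 10 were called between the rd10 groups by edgeR and 0 had an unadjusted p under 0.05. The monocyte and neutrophil markers summed to 14.1, 12 and 2.46 CPM in the same libraries, and the T and NK cell markers to 7.28, 8.63 and 2.39 CPM. The part of the Y-linked difference and of these cells in the results was not tested.

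**Figure D3:**
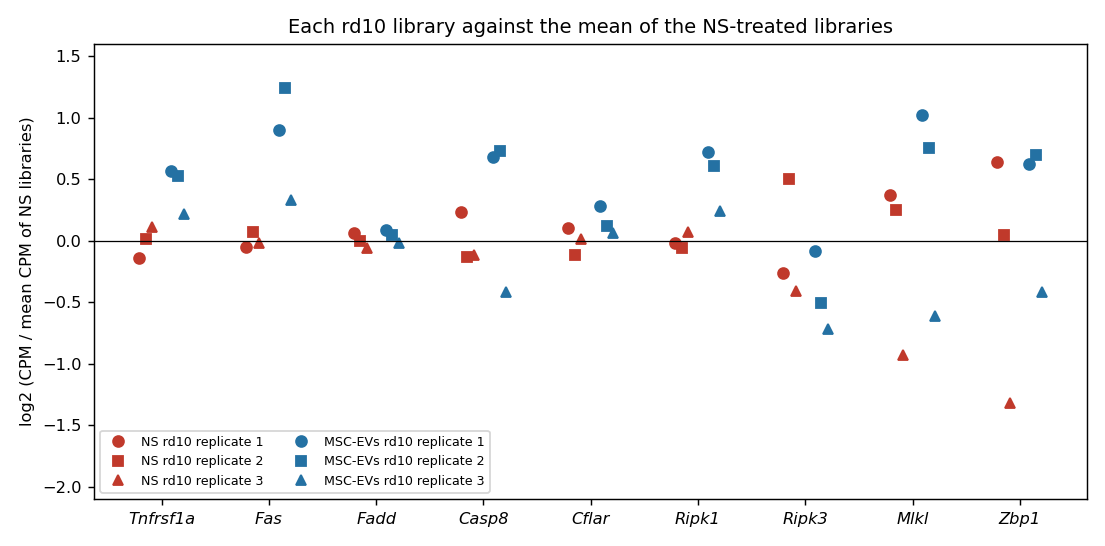
Each rd10 library as the log2 of its CPM over the mean CPM of the 3 NS-treated libraries, with NS in red, MSC-EVs in blue and symbols for the replicate number. MSC-EVs replicates 1 and 2 lie at 0.53 to 1.24 for Tnfrsf1a, Fas, Casp8, Ripk1, Mlkl and Zbp1, and replicate 3 lies at 0.22 to 0.33 for Tnfrsf1a, Ripk1 and Fas and at -0.42 or below for Casp8, Mlkl and Zbp1.

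Against WT, which shares its libraries with the first comparison, 7 of the 8 genes tested were called higher in MSC-EVs-treated rd10, while 28.3% of all 14623 genes were. With a log2 fold change of at least 1 in addition, 5 of the 8 were called, against 9% of all genes. Zbp1 and Mlkl passed the filter through the rd10 libraries, so their part in these counts and their adjusted p are a description only. The ratio of summed counts per depth of Mlkl was 19.7 (exact interval 6.54 to 97). The log2 fold changes were 5.05 for Zbp1 (SE 0.45), 4.43 for Mlkl (0.79), 3.03 for Fas (0.30), 2.95 for Tnfrsf1a (0.11), 2.68 for Casp8 (0.37), 0.97 for Ripk1 (0.13) and 0.35 for Cflar (0.08), each with an edgeR adjusted p of 0.00329 or lower. All MSC-EVs-treated libraries lay above all WT libraries in these 7 genes. Fadd did not pass, with a log2 fold change of -0.26 (SE 0.13, edgeR adjusted p = 0.115). Its values of 6.44, 6.28 and 5.94 CPM were below the 3 WT values. Ripk3 was again under the filter, with a count ratio of 5.5 (exact interval 1.98 to 21.2).

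Most of the listed ligands of death and TNF receptors had few counts. Of 6 ligand genes, 4 were too low to be tested, with at most 8 counts per library for Tnf, 11 for Fasl, 14 for Lta and 6 for Tnfsf15. Tnfsf10, which encodes the ligand TRAIL, rose in NS-treated rd10 from 1.05 ± 0.17 to 3.33 ± 0.951 CPM (log2 fold change 1.66, edgeR adjusted p = 0.00027). Tnfsf12, which encodes TWEAK, fell from 74.2 ± 7.04 to 24.9 ± 3.29 CPM (-1.57, edgeR adjusted p = 3.41e-07). Among the other receptors, 3 of 5 tested rose and none fell, where 31.2% of all genes were called higher and 30.1% lower. These were Tnfrsf1b, the second TNF receptor, from 1.32 to 14.2 CPM (log2 fold change 3.41), Tnfrsf12a, the receptor of TWEAK, from 2.30 to 18.8 CPM (3.02), and Tnfrsf21, also called death receptor 6, from 26.1 to 106 CPM (2.02). Tnfrsf10b, a receptor of TRAIL, was not called, at 0.57 (edgeR adjusted p = 0.0904), and Tnfrsf25 was too low to be tested, with at most 10 counts per library.

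Of the 22 genes whose products act at the TNF receptor complex, 4 rose and 7 fell in NS-treated rd10, against 31.2% and 30.1% of all genes, so the share that fell was near the background and the share that rose was below it. Library totals in place of TMM gave 9 and 4. The ubiquitin-editing enzyme gene Tnfaip3, which encodes A20, fell from 383 ± 20.9 to 71.7 ± 6.61 CPM (log2 fold change -2.42, edgeR adjusted p = 5.62e-10). Xiap, an inhibitor of caspases, fell from 571 ± 2.52 to 284 ± 2.04 CPM (-1.01), and Tab3, an adaptor of the kinase TAK1, fell by 0.55 on the log2 scale. Birc3, which encodes the ubiquitin ligase cIAP2, rose from 0.376 ± 0.117 to 3.07 ± 0.673 CPM (3.03, edgeR adjusted p = 6.65e-06). It passed the count filter through the rd10 libraries, so its call is a description only. Of 12 other modulators of necroptosis, 3 rose and 5 fell, and library totals gave 6 and 2. Tlr3, a receptor of double-stranded RNA, rose by a log2 fold change of 1.88 and Ticam1, its adaptor TRIF, by 1.13. The chaperone gene Hsp90aa1 and the phosphatase gene Pgam5 fell by 0.50 and 0.33 on that scale.

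Of 8 genes of the apoptotic execution machinery, 4 rose and 2 fell. Bid, a substrate of caspase-8, rose by a log2 fold change of 1.08, and Dffa, the inhibitor of the caspase-activated DNase, fell by 0.49 on that scale. Of 11 interferon signalling genes, 7 rose and none fell, against the same 31.2% and 30.1% of all genes, with log2 fold changes of 2.26 for Irf1, 2.07 for Irf9, 1.04 for the receptor subunit Ifnar2 and 0.84 for Stat2.

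Between MSC-EVs-treated and NS-treated rd10, the only gene of these 6 lists called by edgeR was Rnf31, which encodes HOIP, the catalytic subunit of the linear ubiquitin ligase. It stood at 32.3 ± 1.02 CPM with MSC-EVs and 24.4 ± 0.521 CPM with NS (log2 fold change 0.41, SE 0.08, adjusted p = 0.0465). The call was lost with library totals (adjusted p = 0.0537), with limma on log2(FPKM + 1) (0.0653), without the libraries with Y-linked counts (0.0844), with Y-linked expression as a covariate (0.0958) and in 5 of the 6 fits that left out a library, the exception being the fit without MSC-EVs replicate 2. The log2 fold change stayed at 0.46 in both Y-linked alternatives and at 0.38 to 0.44 in the fits that left out a library. Of the genes not called, an unadjusted p under 0.05 was found for 0 of 2 ligands, 1 of 5 receptors, 3 of 21 genes of the TNF receptor complex, 2 of 12 modulators, 1 of 8 execution genes and 4 of 11 interferon signalling genes, against 20.2% of all genes. DESeq2 called 1 of the execution genes, Apaf1, and 4 interferon signalling genes, Ifnar1, Irf9, Jak1 and Stat2, higher, and none of the ligands, receptors or modulators. It called 4.27% of all genes higher. Of the TNF receptor complex it called Rnf31 and no other gene.

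**Figure D4:**
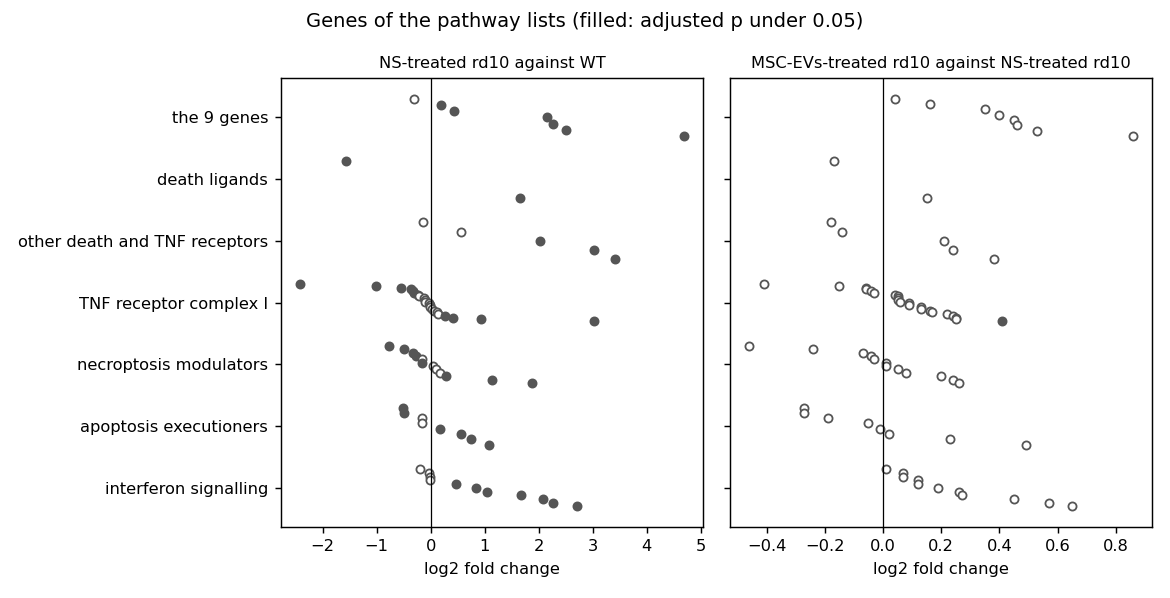
Log2 fold changes of every tested gene of the 9 and of the 6 other pathway lists, with a filled point at an edgeR adjusted p under 0.05; the horizontal scales of the panels differ. NS-treated rd10 against WT has filled points on both sides of 0, from -2.42 for Tnfaip3 to 4.69 for Zbp1, and MSC-EVs-treated against NS-treated rd10 has 1 filled point, Rnf31 at 0.41.

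The genes with the profile most like that of each of 8 genes, Ripk3 being too low, were found over the 9 libraries, as the smallest root mean square difference of log2 CPM centred on the gene's mean, among 14907 genes. For Tnfrsf1a these were Rhoj (0.13) and Tagln2 (0.17), and for Fas Bin2 (0.19) and Tgm2 (0.20). Casp8 was nearest to Lck (0.21) and Nckap1l (0.22), and Ripk1 to Ptpn1 (0.08) and Il1rap (0.10). Zbp1 was nearest to Ifi209 (0.30) and Rtp4 (0.31), and Mlkl to Sp140 (0.22) and C1ra (0.29). Cflar, with Mbtps2 (0.03) and Man1a2 (0.05), and Fadd, with Lsm1 (0.03) and Mul1 (0.04), varied little over the libraries.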

How the data were processed

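The authors enriched mRNA with oligo(dT) and sequenced it on an Illumina platform. Per the labels, their processing notes name fastp, Bowtie2, HISAT2, StringTie 1.3.1 and RSEM, with no roles; the genome build is not given in the sources used here. The deposited table holds estimated counts, not scaled to library size, and FPKM values normalized by the authors for length and depth. The design assumed whole counts, but 9.16% to 11.7% of genes per library had decimals, so the estimated counts were rounded.

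Each pair of groups was fitted on its 6 libraries (edgeR 4.0.16 under R 4.3.3; filterByExpr, TMM, robust quasi-likelihood test, Benjamini-Hochberg over all genes tested). The alternatives used DESeq2 1.42.0 and limma 3.58.1 on log2(FPKM + 1) or log2(FPKM + 0.1). Standard errors are the log2 fold change over the square root of F. The 95% intervals of log2 fold changes apply the multiplier of a normal distribution to these errors. They are approximate, and too narrow for 6 libraries. The main edgeR fit, the DESeq2 fit and limma on log2(CPM + 1) were tested on simulated data, and the other alternatives were not. Ratios of summed counts carry exact binomial intervals at 95%, for counting error only. CPM used TMM factors over all 9 libraries. Positions are from GENCODE M21 and promoters from RefSeq. Replicates differed by more than sampling noise (chi-square per degree of freedom 4.1 to 31.31), so each library counts as 1 sample.

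All 9 genes are named. From each list, up to 4 genes with the smallest adjusted p are named, besides any called between the rd10 groups and those too low to test, and for each gene the 2 most alike in profile. Apaf1, Ifnar1, Jak1, Irf9 and Stat2 between the rd10 groups were named after their values were seen. Some genes that this rule covers are not reported here. The 9 genes and all lists were chosen with earlier results of these data known. Same-numbered libraries were not treated as pairs, since no source pairs them.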

Additional observations from a re-analysis of the deposited data

How the results depend on the processing

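Of 364 log2 fold changes of 8 genes under the alternatives, 340 kept their direction and side of the threshold. Ripk3 passed the filter in no comparison and Mlkl not in NS-treated rd10 against WT, so neither is counted there. In MSC-EVs-treated against NS-treated rd10, Ripk1, Tnfrsf1a and Fas passed as higher with DESeq2, as did 4.27% of all genes. They also passed with all 9 libraries in one fit, as did 4.3%, and without MSC-EVs replicate 3, as did 106 of 14939 genes. When each library was left out in turn, 0 to 3 of the 9 genes passed as higher, and 0 to 426 of all genes did. Against WT, leaving out each library gave 5 to 7 called higher in NS-treated rd10. All genes called higher ranged from 4087 of 14920 (without WT replicate 3) to 4633 of 14824 (without NS replicate 2). Fadd stayed below 0 in these fits, so a count of 7 includes Mlkl or Ripk3. Either could pass the filter there only through the rd10 libraries, so that count is a description only. In MSC-EVs-treated rd10, 7 were called higher, with 3404 of 14869 (without WT replicate 3) to 4291 of 14848 genes (without MSC-EVs replicate 3). Directions turned only between the rd10 groups: without the 2 MSC-EVs libraries that had Y-linked counts, an alternative added after seeing the data, Casp8 was at -0.41, Mlkl at -0.62, Zbp1 at -0.43 and Fadd at -0.02, and with Y-linked expression as a covariate at -0.40, -0.61, -0.41 and -0.01. Zbp1 lay between -0.02, without NS replicate 3, and 0.85, without NS replicate 1. The cause was not tested. Library totals in place of TMM, also added afterwards, moved the median of all genes by 0.179 in NS-treated rd10 against WT and by 0.155 in MSC-EVs-treated rd10 against WT, and the share of calls that were higher from 50.8% to 71.7% and from 51.0% to 71.4%. limma on FPKM gave 71.5% and 71.2% with a pseudocount of 1.

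Over all genes, 172 were called between the rd10 groups, 930 with DESeq2, 1027 with all 9 libraries, 403 with a replicate block, 295 without the Y-linked libraries, and 0 to 676 when each library was left out. The count was 0 without NS replicate 3 (1991 genes at an unadjusted p under 0.05 in edgeR) and without MSC-EVs replicate 1 (2052). The replicate numbers share no stated source. Deviations of same-numbered NS and MSC-EVs libraries correlated at 0.093 to 0.272 and of others at -0.189 to 0.003, each library best with its own number, which is only a hint. With the replicate block, none of the 8 genes tested was called between the rd10 groups. Against WT, 6 were called higher in NS-treated rd10, as were 4552 of all 14644 genes. In MSC-EVs-treated rd10, 7 were called higher against WT, as were 4050 of all 14623 genes. At these depths Ripk3, with at most 19 counts per library, limits any statement on its change.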

Other observations

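The remaining marker lists describe the retinas in which the 9 genes were measured, as edgeR calls between NS-treated rd10 and WT. In that comparison, 31.2% of all genes tested were called higher and 30.1% lower. All 10 rod markers fell (median log2 fold change -1.72), and of 7 cone markers 1 rose and 3 fell. Of 7 Müller glia markers 6 rose, of 7 bipolar and inner retina markers 5 rose and 1 fell, and all 7 endothelial and pericyte markers rose, with a median log2 fold change of 0.55. All 10 microglia and macrophage markers rose, with a median of 3.15. Aif1 and Ptprc among them passed the count filter through the rd10 libraries, so their calls are a description only. Of the 7 monocyte and neutrophil markers, 3 passed the count filter through the rd10 libraries, where they are high, so their calls as higher are a description only, with S100a8, S100a9 and Mpo at 0 in every WT library; 1 of 7 T and NK cell markers passed the filter and rose. Of 7 retinal pigment epithelium markers 2 rose, a share near that of all genes, and Best1 among these passed the filter only through the rd10 libraries. The sum of the 7 ranged from 54.7 to 224 CPM among the NS-treated libraries. No lens marker was called of 5, with 0 at an unadjusted p under 0.05, and their sum lay between 11 and 134 CPM over all libraries. Between the rd10 groups, no marker of any list was called by edgeR, against 0.914% of all genes called higher and 0.251% lower. An unadjusted p under 0.05 was found for 5 of 7 cone, 4 of 7 Müller glia and 3 of 7 bipolar and inner retina markers. It was also found for 2 of 7 retinal pigment epithelium and 1 of 7 endothelial markers, and for 20.2% of all genes. DESeq2 called 4 cone, 2 Müller glia and 1 bipolar and inner retina markers lower in MSC-EVs-treated rd10, and none of the rod, microglia and macrophage, monocyte and neutrophil, T and NK cell, endothelial, retinal pigment epithelium or lens markers. Over all 14765 genes tested it called 930, of which 631 were higher.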
